A study of Homo sapiens with 6 samples.

Results

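The heat shock chaperones of the cytosol and the mitochondrial matrix were followed in 5637, a human bladder cancer cell line, after transfection with a plasmid for MAT1A, the liver enzyme that makes S-adenosylmethionine from methionine. The set held 10 genes, chosen by symbol: HSPA1B, HSP90AA1, DNAJB1 and HSPH1 of the heat-inducible cytosol, HSPA8, HSP90AB1 and HSPA4 of the constitutive cytosol, and HSPD1, HSPE1 and HSPA9 of the mitochondrion. All 10 were among the 13271 genes of the deposited table, and all 10 passed the filter on low values that left 12866 genes for testing. There were 3 libraries in each of 2 groups: cells given the MAT1A plasmid, and control cells given an empty vector, so that both groups had been through lipid transfection (Lipofectamine 3000). Cells were at about 50% confluency in a 24-well plate when transfected, and RNA was taken 48 h later. The model is a transient transfection of a single cell line, the plasmid's promoter is not named in the sources used here, and the labels do not say that the 3 libraries of a group came from separate cultures. The p-values therefore reflect how far these libraries scatter, and that scatter may be technical.

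Chaperones are proteins that bind other proteins while these fold. HSP70 proteins such as HSPA8 and HSPA1B hold short stretches of an unfolded chain through cycles of ATP hydrolysis, J-domain proteins such as DNAJB1 deliver the chain and start the hydrolysis, and HSP110 proteins such as HSPH1 and HSPA4 exchange the nucleotide so that the chain is let go. HSP90 proteins receive partly folded clients, many of them kinases and hormone receptors. In the mitochondrial matrix the HSP70 protein HSPA9 pulls imported chains through the membrane, and HSPD1 forms a barrel, capped by its partner HSPE1, in which they fold. The heat shock factor HSF1 switches on many of these genes when unfolded protein accumulates, by binding repeats of the unit nGAAn in alternating orientation, the heat shock element.

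Promoter sequences show which of the 10 genes carry exact forms of such repeats close to a listed start, so that the values can be read beside them. RefSeq start sites on GRCh38.p14 gave windows of 300 bases, 250 before a start and 50 after it, and all 10 genes had at least 1 window. Each was searched on both strands for the 2-unit forms GAANNTTC and TTCNNGAA, each of which is its own reverse complement, and for the 3-unit forms GAANNTTCNNGAA and TTCNNGAANNTTC, which contain the 2-unit forms. Upstream of a start, a 3-unit form stood in HSP90AA1, HSPA8, HSP90AB1 and HSPD1, and only 2-unit forms in HSPA1B and DNAJB1. HSPA9 had a 2-unit form that lay over its start, and the windows of HSPH1, HSPA4 and HSPE1 held neither form. Of the 35116 windows of 27305 genes, 13.5% held a 2-unit form and 0.490% a 3-unit form. Counted by gene, 16.2% held a 2-unit form in any window and 0.608% a 3-unit form. These shares count a match anywhere in a window, not only upstream of the start. One stretch of 30 bases is printed for each of the 6 genes with a form upstream of a start, with the matched letters in capitals, 5′ to 3′ on the strand of the gene. In HSPD1 the capitals mark overlapping 3-unit forms. The match begins 105 bases before the start in HSPA1B, 88 in HSP90AA1, 47 in DNAJB1, 55 in HSPA8, 112 in HSP90AB1 and 245 in HSPD1.
HSPA1B, chr6:31827622-31827651, plus strand, 2 units: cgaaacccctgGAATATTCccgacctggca
HSP90AA1, chr14:102087111-102087140, minus strand, 3 units: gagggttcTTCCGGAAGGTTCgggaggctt
DNAJB1, chr19:14518426-14518455, minus strand, 2 units: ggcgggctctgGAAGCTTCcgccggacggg
HSPA8, chr11:123062170-123062199, minus strand, 3 units: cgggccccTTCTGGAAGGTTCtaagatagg
HSP90AB1, chr6:44247823-44247852, plus strand, 3 units: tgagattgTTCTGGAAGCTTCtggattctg
HSPD1, chr2:197500061-197500090, minus strand, 3 units: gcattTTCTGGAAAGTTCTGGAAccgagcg
A match is a description of letters, and binding was not measured in these cells. The search took exact forms in these windows alone, so the lack of a match does not show that a gene has no heat shock element. For HSP90AA1, DNAJB1, HSP90AB1 and HSPD1 the forms stood at some of the listed starts and not at others.

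Values are reads on the scale of the deposited table, which is close to counts per 1 M reads (CPM), and a log2 change is the MAT1A minus control difference of log2(value + 1). A gene was called when its p from limma, adjusted by the Benjamini-Hochberg method over the 12866 genes, was under 0.05. Depth ran from 17.4 to 21.6 M reads per library, and 3 reads, the limit that a count of 0 allows, was worth at most 0.172 on the deposited scale. MAT1A itself stood at 1.09, 0.253 and 4.54 in control libraries 1, 2 and 3 and at 1805, 1834 and 1917 in MAT1A libraries 1, 2 and 3, as the labels have it. Of 11 epithelial markers 10 were in the table, none at 0, and their sum was 9321, 9284 and 9150 in the controls against 10098, 10564 and 9724 in the MAT1A libraries, without overlap. Of the 9 tested, 4 were called higher, KRT5, KRT8, KRT17 and CDH1, and 1 lower, GATA3. Over all genes tested, 4.01% were called higher and 7.4% lower. The part of this epithelial shift in the chaperone values was not tested. Of 21 skeletal muscle markers 20 were in the table, none at 0. Of the 19 tested, 16 were called lower, against 7.4% of all genes tested. The sum of the 20 was 629, 260 and 188 in the controls against 181, 133 and 122 in the MAT1A libraries, so that control library 1 stood apart. Each chaperone's change is therefore also given without that library, and the part of the muscle signal in it was not tested. The summed values of 3 of 6 fibroblast markers were also highest there, at 259 against 121 to 151 elsewhere, as was the 1 of 5 blood markers in the table, HBB, at 52.2 against 5.87 to 33.9.

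Of the 10 chaperones 5 rose and 0 fell by limma, edgeR and DESeq2 alike, and none had a negative change at an unadjusted p under 0.05. The risers were HSPD1, DNAJB1, HSPA4, HSP90AA1 and HSPA8, each by 7.17% to 11.1% of its control mean. Over all genes tested, 4.01% were called higher and 7.4% lower, and among the 3772 genes with a mean at least as high as the lowest of the 10 chaperones, 8.03% were called higher. In 7 of the 10 chaperones all 3 MAT1A libraries lay above all 3 controls, against 14.7% of all genes tested, and HSPA1B, HSPH1 and HSPE1 overlapped. The median log2 change of the 10 was 0.09, beside 0.004 over all genes tested and 0.020 over those at least as highly expressed. The size of these changes was small: the median over the 516 genes called higher, at any level of expression, was 0.17. A fit with the library number as a block called 7 of the 10 higher, adding HSP90AB1 and HSPA9, where it called 7.57% of all genes higher. Calls were lost when a library was left out and fewer samples entered the fit, while the log2 changes of the 5 risers stayed between 0.09 and 0.16. Leaving out control 1 or control 3 left HSPD1 as the only call, leaving out MAT1A 1 left HSPD1 and HSPA4, leaving out control 2 left 3 calls, and leaving out MAT1A 3 left 4. Over all genes, 516 were called higher with all libraries and 234 without control 1. In bulk RNA such as this, a different share of cells of some kind and a different amount of RNA per cell cannot be told apart.

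**Figure D1:**
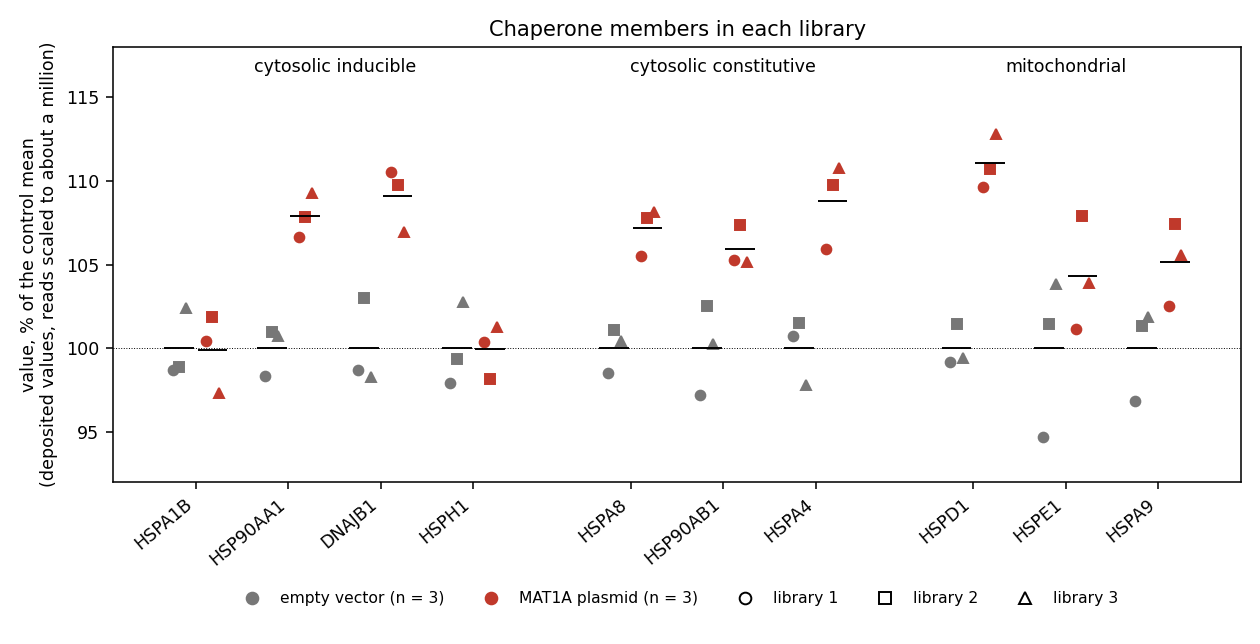
Value of each chaperone in each library, as a percent of the control mean of that gene (vertical axis, starting above 0), with black bars for the group means (n = 3 libraries a group) and marker shapes for the library number. HSPD1 shows the widest gap between the groups, and HSPA1B, HSPH1 and HSPE1 show overlapping groups.

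Among the heat-inducible genes of the cytosol, 2 of 4 rose, with a median log2 change of 0.05. HSP90AA1 (ENSG00000080824.18, chr14:102080738-102139699, minus strand) codes for the inducible cytosolic HSP90. It stood at 3144, 3228 and 3220 in control libraries 1, 2 and 3 and at 3410, 3447 and 3493 in MAT1A libraries 1, 2 and 3. The groups did not overlap, and the log2 change was 0.11 ± 0.03 (SE; limma, adjusted p = 0.0259). Without control 1 it was 0.10 (adjusted p = 0.150), and without control 2, control 3 or MAT1A 1 the call was lost as well (adjusted p = 0.0680, 0.109 and 0.0586). DNAJB1 (ENSG00000132002.7, chr19:14514770-14529770, minus strand), the J-domain partner of cytosolic HSP70, gave 223, 233 and 222 in the controls and 250, 248 and 242 after MAT1A. No control reached the lowest MAT1A library, and DNAJB1 rose by 0.13 ± 0.03 (SE) on the log2 scale (limma, adjusted p = 0.0158). The adjusted p was 0.0842 without control 1, 0.10 without control 3 and 0.0733 without MAT1A 1, at log2 changes of 0.11 to 0.12.

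The other inducible genes gave overlapping groups. HSPA1B (ENSG00000204388.6, chr6:31827735-31830255, plus strand), a classical stress-inducible HSP70, stood at 64.5, 64.6 and 66.9 in the controls and at 65.6, 66.5 and 63.5 after MAT1A. The groups overlapped throughout: the lowest library was MAT1A 3 and the highest control 3. Its log2 change was -0.002, with a 95% interval from -0.09 to 0.08 (limma, adjusted p = 0.982), and without control 1 it was -0.01 (adjusted p = 0.920). HSPH1 (ENSG00000120694.19, chr13:31134974-31162388, minus strand), the inducible HSP110, gave 628, 637 and 659 in the controls and 644, 629 and 650 after MAT1A. The MAT1A values all lay inside the range of the controls. The 95% interval of its log2 change ran from -0.06 to 0.06 around -0.001 (limma, adjusted p = 0.989), so a rise as large as the point estimates of HSPA8, HSP90AA1, HSPA4, DNAJB1 or HSPD1 lay outside it. Without control 1 the change was -0.02 (adjusted p = 0.841), and with length and GC trends removed 0.04 (adjusted p = 0.246).

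All 3 constitutive genes of the cytosol had MAT1A values above every control, and 2 were called, with a median log2 change of 0.10. HSPA8 (ENSG00000109971.13, chr11:123057489-123063230, minus strand), the housekeeping HSP70, stood at 2385, 2446 and 2430 in the controls and at 2554, 2609 and 2618 after MAT1A. It rose by 0.10 ± 0.03 (SE) on the log2 scale (limma, adjusted p = 0.0381). This was the call lost most often among the 10 when a library was left out: it passed without MAT1A 2 alone, and without control 1 the log2 change was 0.09 (adjusted p = 0.182). HSPA4 (ENSG00000170606.14, chr5:133051962-133106449, plus strand), an HSP110 protein that exchanges nucleotide on HSP70, gave 339, 341 and 329 in the controls and 356, 369 and 372 after MAT1A. Its groups stood clear of each other and it rose by 0.12 ± 0.03 (SE) on the log2 scale (limma, adjusted p = 0.0157), with 0.13 (adjusted p = 0.0545) without control 1 and 0.11 (adjusted p = 0.110) without control 3.

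HSP90AB1 (ENSG00000096384.19, chr6:44246166-44253888, plus strand), the constitutive cytosolic HSP90, stood at 1544, 1630 and 1593 in the controls and at 1673, 1706 and 1671 after MAT1A. The groups did not overlap, with control 1 the lowest library. Its log2 change of 0.08 ± 0.03 (SE) missed the threshold (limma, adjusted p = 0.0866). With the library number as a block the same difference passed (adjusted p = 0.00672), and without control 1 it was 0.06 (adjusted p = 0.343).

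The mitochondrial genes gave 1 call among 3 and a median log2 change of 0.07. HSPD1 (ENSG00000144381.16, chr2:197486581-197516737, minus strand), the barrel of the matrix chaperonin, stood at 829, 848 and 831 in the controls and at 917, 926 and 943 after MAT1A. The gap between the highest control and the lowest MAT1A library exceeded the range within either group. HSPD1 rose by 0.15 ± 0.03 (SE) on the log2 scale (limma, adjusted p = 0.00198), the largest among the 10 chaperones, and it alone of them was called under all 19 alternatives of processing and left-out libraries, including without control 1 (0.14, adjusted p = 0.020). HSPE1 (ENSG00000115541.10, chr2:197499994-197503457, plus strand), the lid of that barrel, gave 60.8, 65.2 and 66.7 in the controls and 65.0, 69.3 and 66.8 after MAT1A. Its groups overlapped, with control 1 the lowest library, and the log2 change was 0.06, with a 95% interval from -0.03 to 0.15 (limma, adjusted p = 0.413). Single libraries moved this value: it was 0.02 (adjusted p = 0.831) without control 1 and 0.04 (adjusted p = 0.678) without MAT1A 2.

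HSPA9 (ENSG00000113013.13, chr5:138553756-138575724, minus strand), the HSP70 of the import motor, stood at 432, 452 and 454 in the controls and at 457, 479 and 471 after MAT1A. Every MAT1A library was above every control, by a narrow margin between control 3 and MAT1A 1. The log2 change of 0.07 ± 0.03 (SE) did not pass (limma, adjusted p = 0.148), and with the library number as a block it did (adjusted p = 0.0347). Without control 1 it was 0.05 (adjusted p = 0.463).

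**Figure D2:**
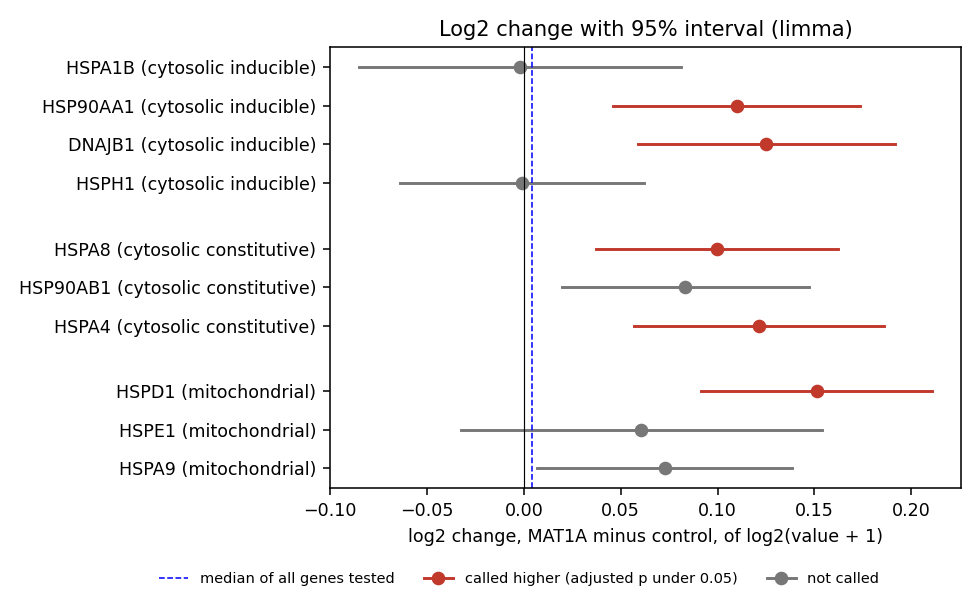
Log2 change of each chaperone, MAT1A minus control (horizontal axis), with its 95% interval from limma (n = 3 libraries a group) and the median of all genes tested as a dashed line. The 5 genes called higher sit between 0.10 and 0.15, and HSPA1B and HSPH1 sit near 0.

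Inducible cytosolic and mitochondrial chaperones were set beside each other within each library, as the mean of the log2 differences of the group's genes from their control means. The inducible mean was -0.02, 0.01 and 0.01 in the controls and 0.06, 0.06 and 0.05 after MAT1A. For the mitochondrial genes it was -0.04, 0.02 and 0.02 in the controls and 0.06, 0.12 and 0.10 after MAT1A. The constitutive genes of the cytosol gave -0.02, 0.02 and -0.01 against 0.08, 0.12 and 0.11. Each of the 3 means was higher in every MAT1A library than in every control. The inducible minus mitochondrial difference was 0.02, -0.01 and -0.01 in the controls and 0.0004, -0.06 and -0.05 after MAT1A. These ranges overlapped, with or without control 1. Taken by library number, MAT1A minus control, the same quantity was -0.02, -0.05 and -0.04. The inducible genes as grouped here thus gained less than the mitochondrial genes for all 3 library numbers, and no test was made of it. The direction depended on the grouping. With HSPA8 counted as inducible, the inducible median log2 change was 0.10, above the mitochondrial 0.07. With length and GC trends removed, the inducible median was 0.0727 and the mitochondrial 0.0825. Without control 1 the median log2 change was 0.04 for the inducible, 0.09 for the constitutive and 0.05 for the mitochondrial genes. Within the inducible group the genes differed more than the group means did, from -0.002 for HSPA1B to 0.13 for DNAJB1.

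Ratios between partners were compared by exact permutation tests, two-sided, over 6 pairs of genes chosen after their values were seen. They are ratios of deposited values, not divided by length, so they compare libraries and not the amounts of the paired transcripts. With 3 libraries against 3 no such test can give a p under 0.1, which is 0.2 after adjustment over the 6 pairs here. HSPH1 relative to HSPA4, the inducible against the constitutive HSP110, was 1.86, 1.87 and 2.01 in the controls and 1.81, 1.71 and 1.75 after MAT1A. All 3 MAT1A ratios lay below the controls (exact p = 0.1, adjusted 0.2). HSPA1B relative to HSPA8 likewise gave 0.0270 ± 0.000561 (SD, n = 3) in the controls and 0.0251 ± 0.000762 (SD, n = 3) after MAT1A, without overlap (exact p = 0.1, adjusted 0.2).

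HSPD1 relative to HSPA9 gave 1.87 ± 0.0454 (SD, n = 3) in the controls and 1.98 ± 0.0420 (SD, n = 3) after MAT1A, with all 3 MAT1A ratios above the controls (exact p = 0.1, adjusted 0.2). The remaining ratios overlapped between the groups. HSP90AA1 relative to HSP90AB1 was 2.01 ± 0.0282 (SD, n = 3) against 2.05 ± 0.0363 (SD, n = 3; exact p = 0.3, adjusted 0.36). HSPD1 relative to HSPE1, barrel to lid, was 13 ± 0.590 (SD, n = 3) against 13.9 ± 0.441 (SD, n = 3; exact p = 0.2, adjusted 0.3). Per kb of transcript the mean ratio of HSPD1 to HSPE1 was 5.04 in the controls and 5.36 after MAT1A. DNAJB1 relative to HSPA8 gave an exact p of 0.5 (adjusted 0.5). Without control 1 the HSPD1 to HSPE1 ratio no longer overlapped, the controls at 13 and 12.5 lying below the MAT1A libraries at 14.1, 13.4 and 14.1, and the other 5 ratios kept their overlap or lack of it.

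Levels can be compared between genes only per length, here per kb of the principal transcript in GENCODE 29. In the controls HSPA8 was highest at 983 per kb, ahead of HSP90AA1 at 946, HSP90AB1 at 594 and HSPD1 at 341. HSPH1 at 124, DNAJB1 at 99.8 and HSPA9 at 94.4 followed, and HSPA4 at 69.6, HSPE1 at 67.6 and HSPA1B at 25.9 were lowest. Neighbours in this order did not overlap over the 3 control libraries, except HSPA4 and HSPE1. After MAT1A the order was the same, and HSPA4 no longer overlapped HSPE1.

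Some of these levels depend on how reads shared with a near-identical gene were counted, and the sources used here do not give this. Of the 36-base stretches of its principal transcript, HSPA1B shared 74.0% with another gene, and 72.5% with HSPA1A, its neighbouring copy. The HSPA1A row stood at 4.53, 3.79 and 4.20 in the controls and at 5.07, 4.63 and 5.45 after MAT1A, with no call (log2 change 0.23; limma, adjusted p = 0.166). HSPE1 shared 57.1% with another gene, and most of all with HSPD1 (26.9%) and the HSPE1-MOB4 readthrough gene (17.3%). HSPD1 shared 41.0%, HSPA8 33.4%, HSP90AB1 32.7% and HSP90AA1 31.9%, for the most part with processed pseudogenes such as HSPD1P1 (25.8% of HSPD1). HSPA9 shared 7.97% and DNAJB1 5.92%, while HSPA4 and HSPH1 shared 0.271% and 0.155%. Levels of HSPA1B and HSPE1 are therefore uncertain, as is the order of neighbours such as HSPA8 and HSP90AA1, and the place of HSPA1B in the order depends on how shared reads were treated. The libraries do not mark strand, so reads from the 281 exon bases that HSPD1 and HSPE1 share on opposite strands cannot be told apart, nor those from 211 bases of DNAJB1 with TECR and 197 bases of HSP90AA1 with WDR20.

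The changes can be set beside the promoter letters printed above. Of the 6 genes with a form upstream of a start, HSPD1, HSP90AA1, HSPA8 and DNAJB1 rose, HSP90AB1 did not pass (log2 change 0.08) and HSPA1B gave -0.002. HSPA9, whose 2-unit form lay over its start, was not called (limma, log2 change 0.07, adjusted p = 0.148). HSPA4, with neither form in its window, rose by 0.12, and HSPH1 and HSPE1, also without a form in theirs, were not called. For HSPE1 this depends on where its window ends. The HSPD1 stretch at chr2:197500061-197500090 lies upstream of the HSPE1 start at chr2:197500379, outside the HSPE1 window, which begins at chr2:197500129. That stretch lies downstream of the other listed start of HSPD1, at chr2:197500274. HSPE1 therefore cannot be set against HSPD1 as a gene without the element. HSF1, the factor that reads these elements, stood at 177, 184 and 180 in the controls and at 193, 196 and 187 after MAT1A. Its groups did not overlap, and its log2 change of 0.09 ± 0.03 (SE) was not called (limma, adjusted p = 0.0988), and without control 1 it was 0.07 (adjusted p = 0.298). With the library number as a block it was called (adjusted p = 0.0392), and with the block and length and GC trends removed it was not (0.06, adjusted p = 0.103).

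The wider chaperone network was read from 84 further genes, of which 75 were in the table and tested. Of these, 2 rose (2.67%, against 4.01% of all genes) and 3 fell (4%, against 7.4%), with a median log2 change of 0.04. With the library number as a block 11 rose and 5 fell, where 7.57% of all genes rose and 10.4% fell. TRAP1, the HSP90 of the mitochondrion, stood at 93.4, 91.9 and 97.8 in the controls and at 104, 113 and 109 after MAT1A. It rose by 0.20 ± 0.04 (SE) on the log2 scale (limma, adjusted p = 0.00302), and like HSPD1 it was called under all 19 alternatives. It was the only call among 20 mitochondrial chaperones and proteases, whose median log2 change was 0.05, and with the library number as a block 2 were higher and 1 lower.

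NUDC, a co-chaperone of HSP90, gave 222, 223 and 217 in the controls and 241, 249 and 226 after MAT1A. Its rise of 0.11 ± 0.04 (SE) on the log2 scale was just past the threshold (limma, adjusted p = 0.0492) and was lost under 12 of the 19 alternatives, among them edgeR (adjusted p = 0.0570), DESeq2 (0.0734) and leaving out control 1 (0.122). It was the only call among 14 tested co-chaperones of HSP90, of which 12 had a log2 change above 0 and 6 had all MAT1A libraries above all controls, against 14.7% of all genes. With the library number as a block 5 of the 14 were called higher, against 7.57% of all genes. By limma without the block, 7 of the 14 were higher and 1 was lower at an unadjusted p under 0.05. Of all 12866 genes tested, 3373 reached that level in either direction, a share to set beside the unadjusted counts below as well. No gene was called among 11 nucleotide exchange factors and partners of HSP70, whose median log2 change was -0.02, with 1 below 0 and none above at an unadjusted p under 0.05 and no call by edgeR or DESeq2; with the library number as a block 1 was called lower. STIP1, which links HSP70 to HSP90, was at 0.01 and BAG6 at 0.04. Limma called none of 8 other HSP70 proteins, whose median log2 change was 0.11, DESeq2 none and edgeR 1, HSPA14. By limma 2 of the 8 were higher at an unadjusted p under 0.05, a level that 3373 of all 12866 genes reached in either direction. HSPA13 was at -0.08 and HSPA14, whose symbol is annotated for a pair of overlapping genes, at 0.16 (adjusted p = 0.0542, and 0.0317 with the library number as a block).

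The 3 genes that fell came from 3 lists, each of which also held 1 gene called higher with the library number as a block. HSF2, another heat shock factor and the only call in a list of 5 factors and regulators with a median log2 change of 0.02, gave 23.7, 22.9 and 24.8 in the controls and 20.5, 19.1 and 21.2 after MAT1A, without overlap. It fell by 0.22 on the log2 scale (SE 0.06; limma, adjusted p = 0.0242), and the call was lost with DESeq2 (adjusted p = 0.0839) and without control 1 (0.0715), control 3 (0.123), MAT1A 1 (0.0563) or MAT1A 2 (0.0775). DNAJB4, the only call among 14 further cytosolic J-domain proteins, whose median was 0.03, gave 18.1, 17.5 and 18.7 in the controls and 16.0, 12 and 14.6 after MAT1A. It fell by 0.34 on the log2 scale (SE 0.08; limma, adjusted p = 0.0144), with adjusted p = 0.0506 without control 1 and 0.0706 without control 3.

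CRYAB, a small heat shock protein abundant in muscle and lens, stood at 5.68, 1.11 and 1.11 in the controls and at 0.701, 0.411 and 0.373 after MAT1A, from 99, 22 and 23 reads and from 13, 8 and 8 reads. It fell by 1.06 on the log2 scale (SE 0.30; limma, adjusted p = 0.0334). At this low level the size depends on the scale: the log2 change was -1.82 with a pseudocount of 0.1, -1.91 with limma-voom, -2.36 with edgeR and -2.41 with DESeq2, where the call was lost (adjusted p = 0.0671). The summed skeletal muscle markers ran with it, highest in control 1 and lowest in MAT1A 3, and their part in the result was not tested. Without control 1 the log2 change of CRYAB was -0.50 (adjusted p = 0.0829), and without MAT1A 1 or MAT1A 3 it was -1.16 (0.0574) and -1.0 (0.0592). Among the chaperones HSP90AB1, HSPE1 and HSPA9 had their lowest value of all 6 libraries in control 1, as did HSP90AA1, HSPA8, HSPD1 and HSPH1. CRYAB was 1 of 3 genes tested from the list of small heat shock proteins. The median log2 change of these, -0.07, was the value of HSPB11, whose place in the list rests on its symbol. HSPB1 had a log2 change of 0.11 that was not called (limma, adjusted p = 0.148), but was with the library number as a block (0.0432).

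**Figure D3:**
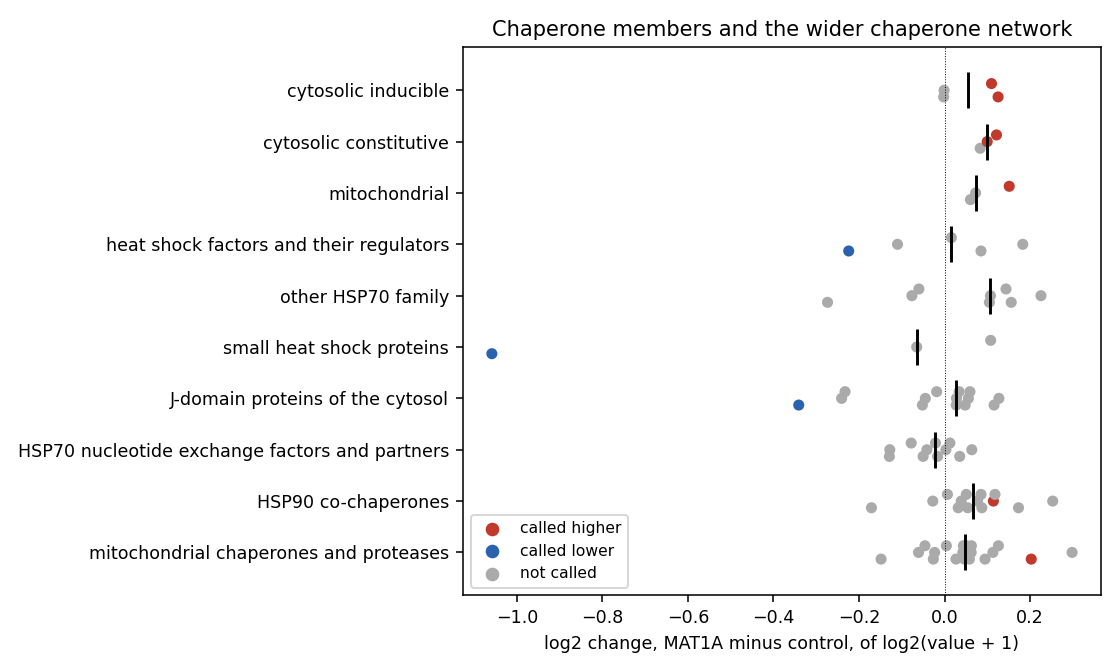
Log2 change, MAT1A minus control (horizontal axis), of each chaperone and of the wider network by list, with a black bar at each list's median (n = 3 libraries a group). Members of the 3 chaperone groups lie between -0.002 and 0.15, and CRYAB lies apart at -1.06.

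**Figure D4:**
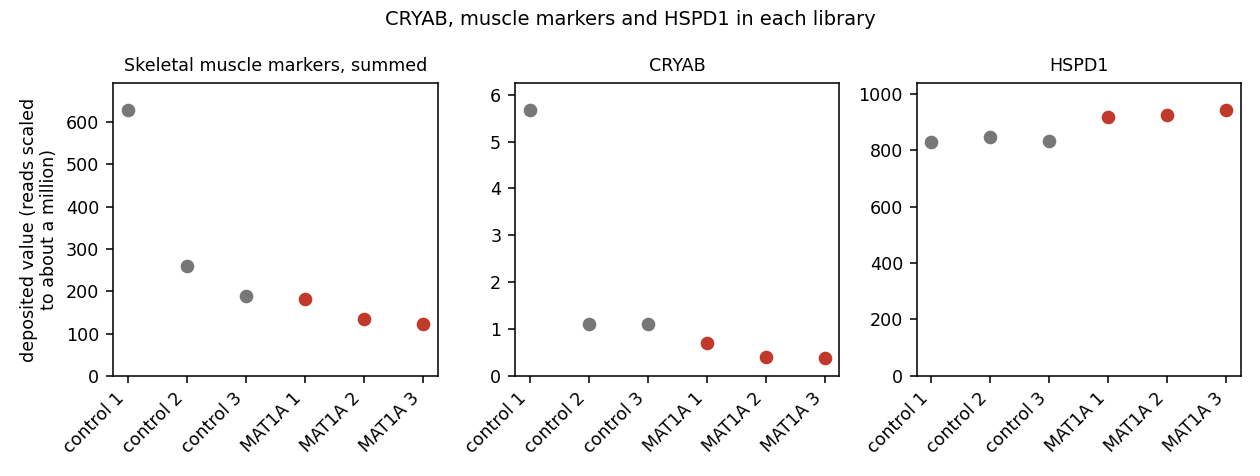
Deposited values in each of the 6 libraries (horizontal axis; controls grey, MAT1A red) of the summed skeletal muscle markers, of CRYAB and of HSPD1, on axes that start at 0. Control 1 is highest for the muscle sum (629) and for CRYAB (5.68) and is the lowest library for HSPD1 (829).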

How the data were processed

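RNA from 6 libraries, 3 control and 3 MAT1A, was grouped by the sample titles, which all 6 columns matched. The values are a signal: the authors deposited the reads of each gene divided by a library size that they had scaled, which is close to CPM. STAR 2.6.0c, featureCounts and edgeR, with hg38, are named in the submitters' processing notes; the sources used here give neither annotation nor settings. Column sums ran from 997732 to 1015440. In every column 100% of values were whole multiples of 1 step within 0.001 reads, taken as the worth of 1 read, which gave 17.4 to 21.6 M reads per library. The floor of 3 reads covers counting error alone, as the libraries carried no molecular identifiers. Rows had been removed before deposit, since the lowest total of a row was 25 reads. Of the symbols, 13211 matched GENCODE 29.

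The test was limma 3.58.1 with an intensity trend in R 4.3.3 on log2(value + 1), for the 12866 genes at 1 or more in 3 or more libraries, with Benjamini-Hochberg adjustment over these genes and a threshold of 0.05. Log2 changes on this scale understate those of low genes. The test was also run on simulated data. No outcome of that run is given here, so it does not show how well changes as small as the chaperones' are called. Alternatives were other scalings, edgeR 4.0.16 and DESeq2 1.42.0 on the recovered reads, limma-voom, other filters, a pseudocount of 0.1, a threshold of 0.01, a library-number block, removal of length and GC trends, and leaving out each library. Libraries with the same number deviated together (correlations of deviations from the group means 0.25, 0.18 and 0.19), so the numbers may pair the libraries. This rests on the data, since the labels do not say what a number marks. The reported fit and the permutation tests were unpaired. Pairing entered only the alternatives with a block and the group differences taken by library number.

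The 10 chaperones and the lists were chosen with earlier results of these data known. Named were all 10, up to 3 called genes per direction and list with the smallest adjusted p, the 2 highest genes of a list with no call, HSF1 and MAT1A. HSPA1A, HSPB1 and HSPB11 were named after their values were seen. Promoters are RefSeq's.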

Additional observations from a re-analysis of the deposited data

How the results depend on the processing

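None of the 10 chaperones changed from higher to lower in a call under any of the 19 alternatives run, and none was called lower. The count of the 10 called higher, 5, was 5 to 7 under other scalings, filters, pseudocounts and tools and with the block, 1 at a threshold of 0.01, and 1 to 5 with 1 library left out, where fewer samples enter the fit. With the replicate block, 7 of the 10 were called higher, in the wider network 11 rose and 5 fell, and over all genes 974 rose. Rises in the network, 2 by the reported fit, numbered 1 with the library total taken without MAT1A, 1 with DESeq2, 1 with limma-voom, 1 with no filter, 1 with a pseudocount of 0.1, 1 at a threshold of 0.01, 4 with a filter of 5, 7 with length and GC trends removed, and 13 with that and the block. Falls there, 3, numbered 1 with DESeq2 and 0 at a threshold of 0.01. With 1 library left out, 1 to 4 rose and 0 to 3 fell. Over all genes, 516 rises became 319 with DESeq2, 175 at a threshold of 0.01, 780 with length and GC trends removed and 1154 with that and the block, and 225 to 669 with 1 library left out. The 952 falls became 488 at a threshold of 0.01 and 571 to 989 with 1 library left out. The median log2 change of the inducible chaperones, 0.05, was 0.0727 with length and GC trends removed, with or without the block, 0.10 with HSPA8 counted among them, and 0.04 to 0.07 with 1 library left out. Beyond fewer samples or a stricter threshold, the cause was not tested. CRYAB had no value with a filter of 5. Limits: HSPA1B and HSPE1 rest on 1060 to 1432 reads per library, and shared stretches set how many reads each gene was given.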
